A study of Rattus norvegicus with 2 samples.

Results

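Interferons switch on a broad set of genes in almost every cell, liver cells included. Type I interferons act mainly through a complex with STAT2 and IRF9 on the interferon-stimulated response element (ISRE). Interferon gamma acts mainly on the gamma-activated sequence (GAS) and through IRF1. The induced genes include RNA sensors, antiviral effectors, GTPases that attack pathogen-containing vacuoles, and the machinery that shows peptides to T cells on class I and class II major histocompatibility molecules, which are called RT1 in the rat.

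The set described here holds 67 such genes of 14217 represented on the arrays, through 91 probe sets. They were picked by symbol from probe sets annotated to exactly 1 gene: the Irf, Ifi, Ifit, Oas, Mx, Isg, Gbp, Irg and Ifgga families, the RT1 genes, and single genes of the response such as B2m, Tap1, Tap2, Cd74, Rsad2 and Usp18, with RGD1309362, an interferon-inducible GTPase gene, added. The symbol patterns also took up the Ifitm genes and 4 genes by name only, Irf2bp1, Irf2bp2, Irf2bpl and Isg20l2. Each gene was represented by its probe set of highest mean signal. Of the 67 genes, 61 were measured, meaning that their mean log2 signal was no lower than that of the middle probe set, and 6 were too dim for this. The set was proposed with the differences between these arrays already known, so that every difference below is a description and none is a test.

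Total liver RNA from male Wistar rats aged 2 months was hybridised to 2 Affymetrix rat arrays, 1 per group. The fasted group went without food for 18 h and received no fat. The other group was fasted in the same way and then given 5 ml of extra virgin olive oil as a bolus, a dose of 16 ml per kg, and killed 4 h later. The labels do not say how many rats gave RNA to an array, and with 1 array per group no replicate error and no test can be given. Median signals were 42.5 on the fasted and 44.7 on the olive oil array. Probe sets of the same gene differed from each other with a pooled standard deviation of 0.35 in the log2 difference, taken over 2290 genes, which covers probe error and not variation between rats. All 9 hepatocyte markers were measured, among them Alb, the albumin gene, at 17154 and 17984.

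Promoter stretches of the GTPase genes are shown first, because 3 of them share an arrangement of motifs, with those of 3 other members beside them. Windows of 300 bases, 250 before and 50 after the transcription start, came from RefSeq (build GRCr8) and were at hand for 56 of the 67 members. Both strands were searched for the ISRE core, GAAA followed by any 2 bases and GAAA again, and for GAS, TTCNNNGAA. In the following stretches, printed 5′ to 3′ on the strand of the gene, capitals mark matches to either motif. Igtp, Irgm and Irgm2, all immunity-related GTPase genes, carry a GAS match followed after 2 bases by an ISRE core.
Igtp (chr10:42874913-42874973, plus strand): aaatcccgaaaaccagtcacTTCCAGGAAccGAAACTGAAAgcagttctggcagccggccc
Irgm2 (chr10:42889837-42889897, plus strand): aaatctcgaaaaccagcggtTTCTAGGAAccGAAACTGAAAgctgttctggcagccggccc
Irgm (chr10:33742583-33742643, minus strand): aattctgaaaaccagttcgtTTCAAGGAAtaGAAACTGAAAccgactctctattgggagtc
Ifgga2l1 and Gbp7, the GTPase genes with the largest differences among those with a window, also carry both motifs. Their ISRE core lies on the opposite strand, where it reads as TTTC, any 2 bases and TTTC. GAS has the same letters on both strands. Read on the opposite strand, Ifgga2l1 therefore also has a GAS match followed closely by the ISRE core, with only ctg of the printed stretch between them. In Gbp7 both GAS matches lie further from the core. A further GAS match of Ifgga2l1 begins 6 bases before the start and lies outside the stretch.
Ifgga2l1 (chr18:56031713-56031812, plus strand): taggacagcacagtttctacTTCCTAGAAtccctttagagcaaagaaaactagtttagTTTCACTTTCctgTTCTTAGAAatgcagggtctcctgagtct
Gbp7 (chr2:233948776-233948877, plus strand): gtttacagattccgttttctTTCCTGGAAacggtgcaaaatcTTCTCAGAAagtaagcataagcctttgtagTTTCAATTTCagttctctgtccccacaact
Gbp2 has an ISRE core and no GAS match. Oas1a has 2 overlapping ISRE cores close to its start, and a GAS match that begins 199 bases before the start and lies outside the stretch.
Gbp2 (chr2:234005676-234005725, plus strand): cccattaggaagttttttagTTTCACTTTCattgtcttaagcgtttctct
Oas1a (chr12:41330405-41330460, plus strand): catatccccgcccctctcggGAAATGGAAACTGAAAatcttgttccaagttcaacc
B2m and Ifitm2 are shown for contrast, since they have an ISRE core as well but B2m was nearly equal on the arrays and Ifitm2 was higher after olive oil.
B2m (chr3:129549160-129549209, plus strand): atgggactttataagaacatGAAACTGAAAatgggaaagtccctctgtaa
Ifitm2 (chr1:205482352-205482401, minus strand): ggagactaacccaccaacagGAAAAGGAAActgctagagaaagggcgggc

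Interferon-induced genes were mostly lower after olive oil, and the GTPases differed most. Of the 61 measured members, 43 had a lower and 18 a higher signal on the olive oil array, with a median log2 difference (olive oil minus fasted) of -0.30, against -0.01 over all 9208 measured genes. No member was at least 2-fold higher, against a background of 3.25% of all measured genes, and 9 members (14.8%) were at least 2-fold lower, against 2.94%. At 1.5-fold, 20 members (32.8%) were lower, against 10.1% of all measured genes, and 3 (4.92%) were higher, against 9.46%. Since the members were chosen with this comparison in view, nothing is read from these shares beyond the counts. Of all measured genes, 80.4% lay within 1.5-fold, and of the members 38 of 61. The 36 members at or above the 75th percentile of signal had a median of -0.20, and the 25 dimmer ones a median of -0.35. In the brighter band 4 members were at least 2-fold lower, RGD1309362 and Ifgga2l1 among them, against 1.96% of all genes there, and in the dimmer band 5, against 4.4%.

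**Figure D1:**
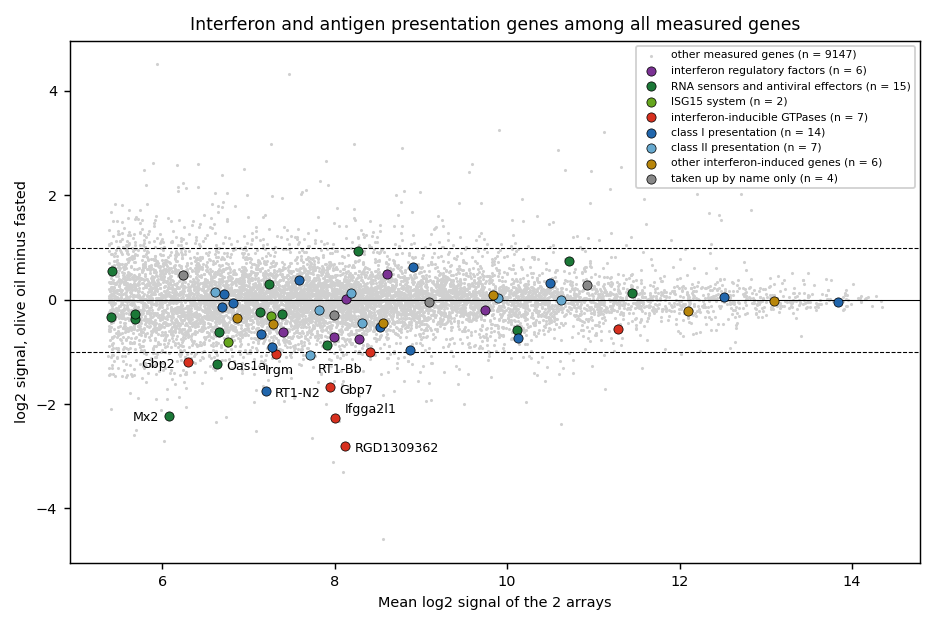
Log2 difference between the arrays (olive oil minus fasted) against mean log2 signal for the 9208 measured genes, with the 61 members coloured by role and dashed lines at 2-fold. All 7 GTPases lie below 0, RGD1309362 lowest at -2.81, and no member lies above the upper dashed line.

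The 7 measured interferon-inducible GTPases were all lower after olive oil, by 1.48-fold to 7.01-fold. At least 2-fold lower were 5 of the 7, against 2.94% of all measured genes. These proteins belong to 2 families, the immunity-related GTPases and the guanylate-binding proteins, which gather on vacuoles that hold intracellular pathogens and are strongly induced by interferon gamma. The group's median log2 difference was -1.20, and all 7 stayed below 0 with the arrays centred on their medians or quantile normalised. RGD1309362 had a signal of 738.7 on the fasted and 105.4 on the olive oil array, 7.01-fold lower. Its neighbour on chromosome 18, Ifgga2l1, went from 565.5 to 117.2, 4.83-fold lower. These genes, with a single gene between them, ranked 4th and 13th from the lowest of all measured genes.

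Gbp7, a guanylate-binding protein gene, stood at 441.1 and 138.6, 3.18-fold lower. Gbp2, next to it but for Gbp4 on chromosome 2, stood at 119.3 and 52.0, 2.29-fold lower. Gbp4 lies between them and was too dim to count as measured, at 44.6 and 20.4. All 3 guanylate-binding protein genes of the set therefore had a lower signal after olive oil. Irgm, an immunity-related GTPase with a regulatory role in its family, went from 228.3 to 110.9, 2.06-fold lower. Igtp, a gene of the same family, had 479.7 and 240.2, just under 2-fold, and a second probe set at 196.7 and 95.1 put it at 2.07-fold. Irgm2 lies beside Igtp on chromosome 10 and was the brightest of the group. It differed least, at 3046 and 2056, 1.48-fold lower. An offset of 16 added to the signals took Gbp2 and Irgm to log2 differences of -0.99 and -0.945 and left 3 GTPases at least 2-fold lower.

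Antiviral effectors went in both directions. The median log2 difference of the 15 measured RNA sensors and effectors was -0.27. Past 1.5-fold, 4 (26.7%) were lower, against 10.1% of all measured genes, and 2 (13.3%) higher, against 9.46%. The other 9 differed less. Mx2, a dynamin-like GTPase that blocks virus replication, differed most in the group, from 146.0 to 31.2, 4.68-fold lower. A second probe set of Mx2, too dim to count as measured, went from 88.1 to 12.1. Mx1 is separated from Mx2 by a single gene on chromosome 11, and it was dim at 47.4 and 37.8, 1.25-fold lower. Oas1a, an oligoadenylate synthetase that makes the activator of the RNA-cleaving enzyme RNase L, stood at 152.8 and 64.7, 2.36-fold lower. Oasl, its relative, stood at 125.4 and 81.4, 1.54-fold lower. Ifit2, which binds foreign RNA, was 1.83-fold lower on its brighter probe set, at 326.1 and 177.9, and 1.84-fold on the other.

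Several widely used interferon-response genes differed little. Ifit1 and Ifit3, which lie near Ifit2 on chromosome 1, were dim and had log2 differences of -0.37 and -0.26. Rsad2, the antiviral enzyme viperin, had signals of 184.4 and 152.7, and Ifih1, a sensor of double-stranded RNA, 152.4 and 129.8. Eif2ak2, the RNA-dependent kinase PKR, had a higher signal after olive oil, at 135.7 and 167.5, as did Isg20, an RNA-degrading enzyme, at 35.2 and 51.5. Oas1b, at 19.1 and 29.6, and Ifitm10, at 10.7 and 15.4, were too dim to count. Bst2, tetherin, which holds budding virus at the cell surface, was bright at 1352 and 909.1, 1.49-fold lower. The interferon-induced transmembrane genes, which block virus entry, ran the other way. Ifitm2 went from 222.6 to 424.8, 1.91-fold higher, and Ifitm1 from 1300 to 2170, 1.67-fold higher, while Ifitm3, between 2672 and 2913, was 1.09-fold higher. These 3 genes lie side by side on chromosome 1.

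The ISG15 system tags proteins with the ubiquitin-like ISG15. Isg15 itself stood at 144.1 and 81.9, 1.76-fold lower, and Usp18, the protease that removes the tag and restrains the type I receptor, at 170.6 and 136.8, 1.25-fold lower. The 6 other interferon-induced genes all lay within 1.5-fold, as did 80.4% of all measured genes. Of the 6, 5 were lower, and their median log2 difference was -0.29. Ifi27 was the brightest of these, at 8845 and 8681, followed by Ifi27l2b at 4728 and 4065. Ifi30, a lysosomal reductase that prepares antigens, had 890.8 and 944.4. Ifi44l, Ifi35 and Ifi44 had log2 differences of -0.46, -0.45 and -0.35.

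Among the interferon regulatory factors, the transcription factors of the response, Irf1, Irf7 and Irf8 were lower and Irf2 was higher. Of the 6 measured, 3 were at least 1.5-fold lower, against 10.1% of all measured genes, and none at least 1.5-fold higher, against 9.46%. Irf1, the main factor downstream of interferon gamma, went from 402.1 to 238.8, 1.68-fold lower. Irf7, which amplifies type I interferon, went from 326.3 to 198.8, 1.64-fold lower. Irf8, a factor of myeloid cells, had 210.2 and 136.2, 1.54-fold lower. Irf3, which is present before any stimulus, had 916.5 and 798.5, 1.15-fold lower. Irf9, the DNA-binding part of the type I complex, was level at 277.3 and 281.1 (a log2 difference of 0.02, which turns below 0 with the arrays centred), with a second probe set higher at 178.7 and 239.1. Irf2, an antagonist of Irf1, stood at 326.7 and 462.3, 1.42-fold higher. Irf5 was below the floor on the fasted array and at 32.9 on the olive oil array, too dim to count. The 4 genes taken up by name only, of which Irf2bp2 was the brightest at 1772 and 2150, lay within 1.5-fold.

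**Figure D2:**
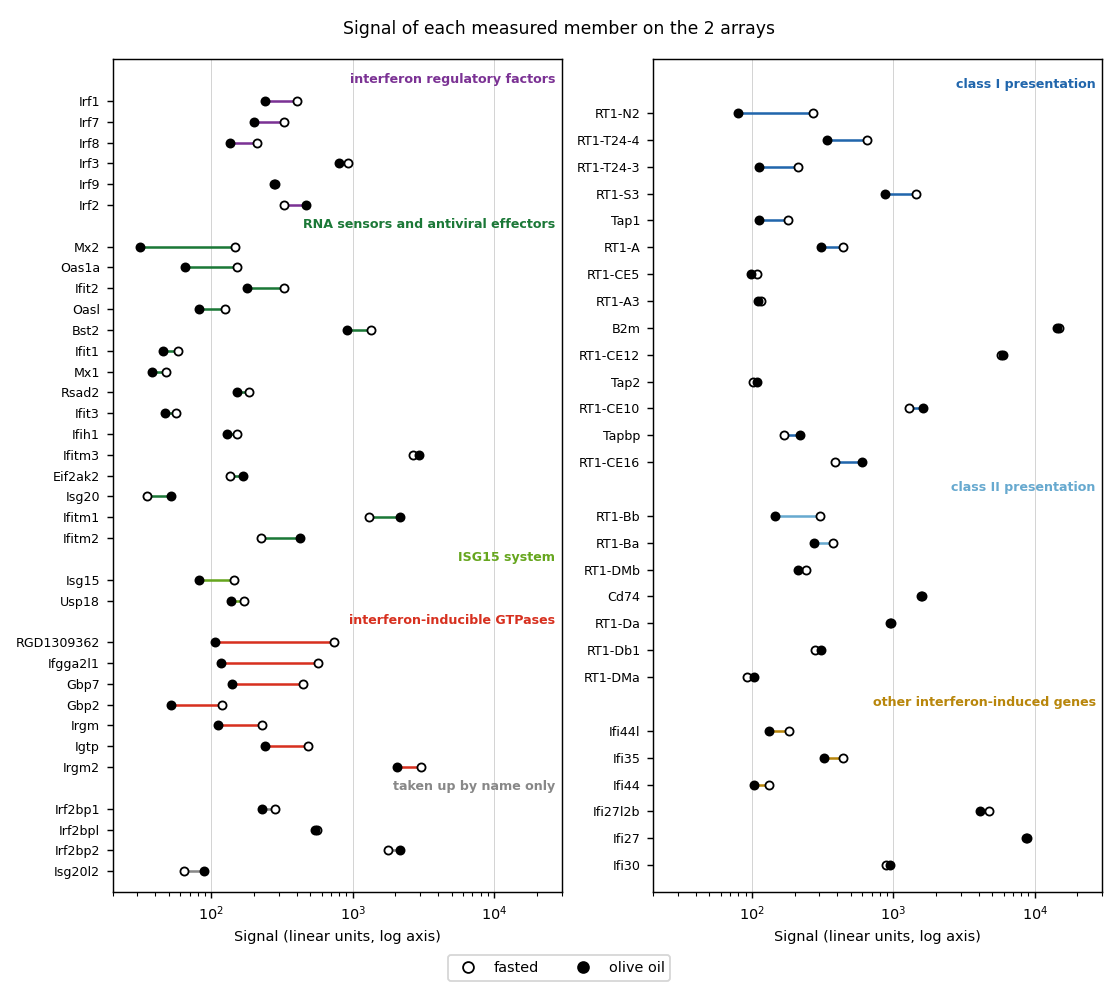
Signal of each of the 61 measured members on the fasted array (open circles) and the olive oil array (filled circles), on a log axis, grouped by role and ordered by difference. The open circles lie to the right for every GTPase, whereas B2m, Cd74 and Ifi27 nearly coincide.

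Class I presentation genes were split, and their common light chain was nearly equal. Class I molecules carry peptides cut in the cytosol to CD8+ T cells. The median log2 difference of the 14 measured genes was -0.10. Past 1.5-fold, 5 (35.7%) were lower, against 10.1% of all measured genes, and 1 (7.14%) was higher, against 9.46%. B2m, the light chain of all class I molecules, was the brightest member at 14859 and 14430, 1.03-fold lower, with a second probe set at 3596 and 3150. Tap1 and Tap2 form the peptide transporter. Tap1 had 178.3 and 112.6, 1.58-fold lower, and Tap2 had 101.5 and 109.2, 1.08-fold higher. Tapbp, tapasin, which holds class I molecules at the transporter, had 168.6 and 219.5, 1.30-fold higher.

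On their brightest probe sets, the RT1 heavy chain genes divided by position in the complex on chromosome 20, a division noticed after their values were seen that depends on the probe sets used. RT1-N2, RT1-N3, RT1-S3, RT1-T24-4 and RT1-T24-3 lie in this order in the RefSeq gene table, with 2 other genes after RT1-N2, and the 4 of them that were measured were all lower, with log2 differences from -1.75 to -0.73 and a median of -0.93. RT1-N2 stood at 269.5 and 79.9, 3.37-fold lower. RT1-T24-4 stood at 655.0 and 337.1, 1.94-fold lower, and RT1-T24-3 at 211.3 and 112.4, 1.88-fold lower. RT1-S3 went from 1440 to 869.9, 1.66-fold lower, and its other 3 probe sets were lower by between 1.32-fold and 1.43-fold. RT1-N3 was too dim to count, at 36.8 and 15.5, as was RT1-M3-1 at 36.0 and 11.7.

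The RT1-CE genes, a separate run on the same chromosome, included 3 with a higher signal and 1 with a lower, and the median of the 4 was 0.19 on the log2 scale. RT1-CE12 was bright at 5779 and 5983, a difference that turns below 0 with the arrays centred or quantile normalised, RT1-CE10 had 1292 and 1615, and RT1-CE16 went from 387.7 to 598.1, 1.54-fold higher. RT1-CE5 had 108.5 and 98.7 on its brightest probe set, but 126.5 and 61.7, 2.05-fold lower, on another. RT1-A, a classical class I gene, went from 442.3 to 307.2, 1.44-fold lower, and RT1-A3 was level at 115.0 and 110.4. RT1 genes are polymorphic and closely alike, and many of these probe sets carry Affymetrix suffixes for shared transcripts, so that single RT1 genes are uncertain. RT1-CE10, RT1-CE12 and RT1-CE16, the 3 with a higher signal, had such probe sets alone. Without them RT1-CE5, at 2.05-fold lower, was the only RT1-CE gene left, no RT1 class I gene was higher, and the division was not seen. The class I median was then -0.51.

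Class II genes, which present peptides from endocytosed proteins to CD4+ T cells, had a median log2 difference of -0.02. Of the 7 measured, 6 lay within 1.5-fold, a share near the 80.4% of all measured genes. Cd74, the invariant chain that guides class II molecules, stood at 1591 and 1574. RT1-Da, the alpha chain of the D molecule, stood at 944.8 and 960.4, and RT1-Db1 at 279.1 and 306.9. RT1-DMa and RT1-DMb, which load the peptide, had log2 differences of 0.16 and -0.20. RT1-Ba had 373.0 and 273.0, 1.37-fold lower, and a second measured probe set gave 1.36-fold. RT1-Bb, a class II beta chain gene, had probe sets of opposite sign. Its brightest probe set went from 304.2 to 145.5, 2.09-fold lower, and the other from 162.5 to 221.3, 1.36-fold higher, so that the mean over both was -0.31. Of the 9 members with over 1 measured probe set, RT1-Bb was the only one whose probe sets differed in sign.

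Other genes of the pathway, from lists written with earlier results of these data known and without the members, also went in both directions. Of 17 measured ligand, receptor and signalling genes, 15 lay within 1.5-fold, a share near that of all measured genes (80.4%), and their median was -0.07 on the log2 scale. Tyk2, a kinase of the type I receptor, went from 579.0 to 268.6, 2.16-fold lower. Stat3, which carries the signal of interleukin 6 and of other cytokines, went from 592.6 to 2254, 3.80-fold higher, with its other probe set at a log2 difference of 1.88. Stat2, a part of the type I complex, had 329.3 and 393.7. The receptor genes Ifnar1, Ifnar2, Ifngr1 and Ifngr2 differed by 0.37, -0.19, 0.23 and -0.45 on the log2 scale. For Ifnar1 the sign depends on the probe set, since its 5 measured probe sets ranged from -0.22 to 0.54. Signals of the interferon genes Ifnb1 and Ifng were below the floor of 12.8 on both arrays.

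Among 34 measured interferon-stimulated genes outside the symbol rule, 24 were lower and 10 higher, with a median of -0.19. Of all 9208 measured genes, 4760 were lower and 4445 higher. Stat2 is counted in this list as well as among the signalling genes above. At least 1.5-fold lower were 8 of the 34 (23.5%), against 10.1% of all measured genes. In the other direction, 1 (2.94%) was at least 1.5-fold higher, against 9.46%. Tnfsf10, the death ligand TRAIL, went from 125.3 to 46.8, 2.68-fold lower, and Helz2, a helicase and nuclear receptor coactivator, from 435.3 to 197.9, 2.20-fold lower. The higher gene was Plscr1, a phospholipid scramblase, at 95.8 and 401.0, 4.19-fold. Of 12 measured genes listed for nucleic acid sensing, 3 were at least 1.5-fold higher and 1 lower, with a median of 0.15. The shares of all measured genes were 9.46% higher and 10.1% lower. The 12 include Tram1, at 6769 and 5886, a gene of protein translocation into the endoplasmic reticulum and not of nucleic acid sensing. Ticam1, the adaptor of the double-stranded RNA receptor TLR3, had 55.2 and 127.3, 2.31-fold higher. Dhx58, an inducible relative of the sensor RIG-I, had 90.6 and 38.1, 2.38-fold lower.

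All 6 measured genes of the immunoproteasome, the inducible form of the proteasome, and its activator lay within 1.5-fold, with a median of 0.08. Psmb9 came closest to a difference, at 524.2 and 351.6, and Psmb8 had 668.1 and 543.7. The constitutive counterparts Psmb5 and Psmb7 had log2 differences of 0.01 and -0.13. Of 22 other antigen processing genes, 20 lay within 1.5-fold, with a median of -0.12. These shares are read against the 80.4% of all measured genes within 1.5-fold and are not called particular to the lists. Nlrc5 and Ciita, the coactivators of class I and class II genes, were too dim to count as measured, Nlrc5 at 36.5 and 40.6 and Ciita at 39.9 and 22.4.

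**Figure D3:**
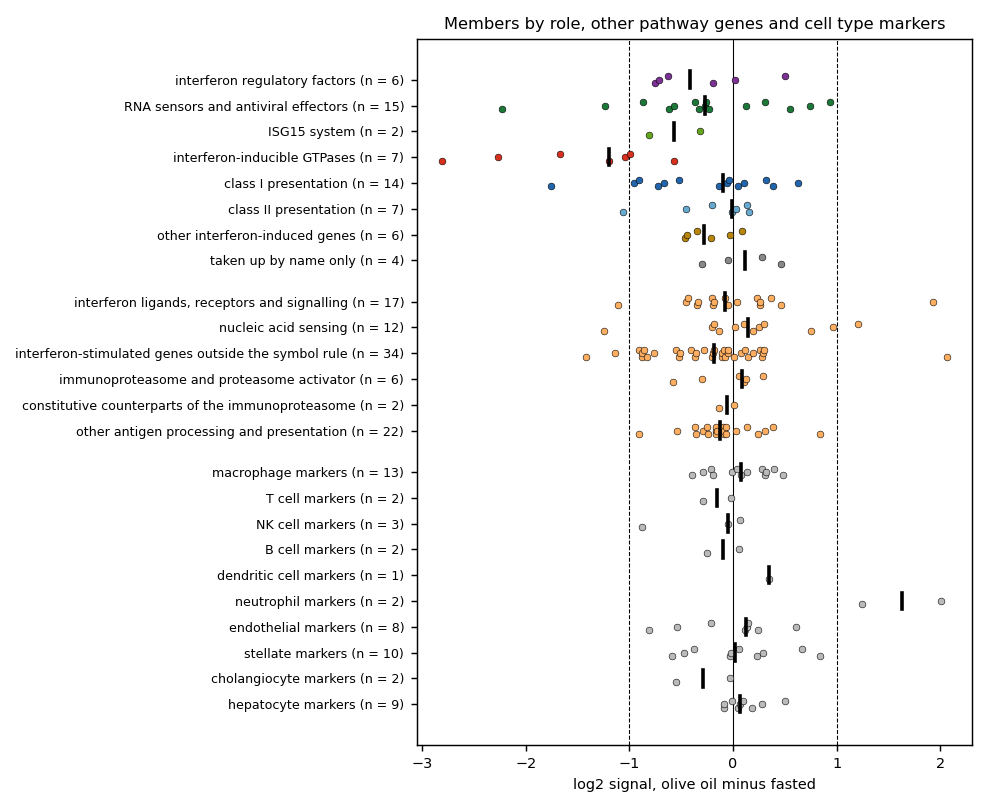
Log2 difference between the arrays (olive oil minus fasted) for each measured gene, in rows for the members by role, other pathway lists and cell type markers, with black bars at row medians and dashed lines at 2-fold. The GTPase row has the lowest median, -1.20, and the macrophage row lies within 1.5-fold throughout.

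In whole liver, fewer cells of a type and less RNA per cell cannot be told apart, so markers of the cells that express these genes were set beside the members. All 13 macrophage markers on the arrays were measured and within 1.5-fold, 8 higher and 5 lower, and their summed signal was 10825 on the fasted and 11135 on the olive oil array. Among them, the Kupffer cell gene Clec4f had 1552 and 1882. The 8 endothelial markers summed to 5818 and 6335 and the 10 stellate cell markers to 3571 and 3742, with medians of 0.12 and 0.01. Endothelial markers went both ways, Lyve1 from 1798 to 2741, Kdr from 1409 to 966.0 and Stab1 from 225.5 to 128.7, and the higher sum rests on Lyve1. Past 1.5-fold, 2 of the 10 stellate markers were higher, against 9.46% of all measured genes, and 1 was lower, against 10.1%. These were Dcn, from 202.7 to 363.6, Acta2, from 43.6 to 69.3, and Lrat, from 183.6 to 122.0. The higher stellate sum rests mainly on Dcn. Of 11 T cell markers 2 were measured, and Cd3d, Cd8a, Cd8b and Trat1 were at or below the floor on both arrays. Of 7 NK cell markers 3 were measured. Their median was -0.05, with Prf1 at 56 and 58.6, Klrk1 at 64.5 and 62.3, and Gzma, a cytotoxic granule protease, at 73.8 and 40.1. Of 5 B cell markers 2, and of 4 dendritic cell markers 1, were measured, with medians of -0.10 and 0.35. Of the neutrophil list 2 of 5 were measured, S100a8 at 32 and 75.7 and S100a9 at 62.9 and 253.1, both higher after olive oil. Of 5 cholangiocyte markers 2 were measured, with a median of -0.29, and the 9 hepatocyte markers had a median of 0.07. The part of any of these cell types in the members' differences, lymphocytes and neutrophils included, was not tested.

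Members were named for a known response to interferon, and the motifs shown above were more frequent in their windows than over all genes. Of the 56 members with a window, 27 (48.2%) had an ISRE core, against 4.12% of 27457 genes with a window, and 15 (26.8%) had a GAS match, against 9.39%. All 6 measured GTPases with a window had an ISRE core, and 5 of the 6 had GAS as well. The spacing of Igtp, Irgm and Irgm2, an ISRE core starting 11 bases after the start of GAS, occurred in 4 of the 27457 windows (0.0146%). It was noticed in these members before it was counted. The other window was that of Parp14, an interferon-stimulated gene at 453.8 and 341.6. The count holds for 11 bases exactly, and only for GAS before the ISRE core on the strand of the gene. The mirror order, which is the same arrangement read on the other strand, was not counted. In the member Bst2, ISRE cores start 6 and 12 bases after the start of GAS, so that its window was not counted. Between the printed stretches of Igtp and Irgm2, 54 of 61 bases were identical, against 34 of 61 between Igtp and Irgm. None of the 6 measured class II genes with a window had either motif in it, while 5 of 13 class I genes had an ISRE core and none had GAS.

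Members with both motifs had a lower median than those with an ISRE core alone. The 9 measured members with both had a median log2 difference of -0.998, 8 of them lower, and ranged from -2.27 to 0.12. The 15 with an ISRE core and no GAS match had a median of -0.23, 10 of them lower, and ranged from -1.20 to 0.93. The 22 with neither had a median of -0.05. Of the 9 members with both motifs, 5 are GTPases, so that motif and family cannot be told apart here. RT1-N2, 3.37-fold lower, had neither motif in its window.

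**Figure D4:**
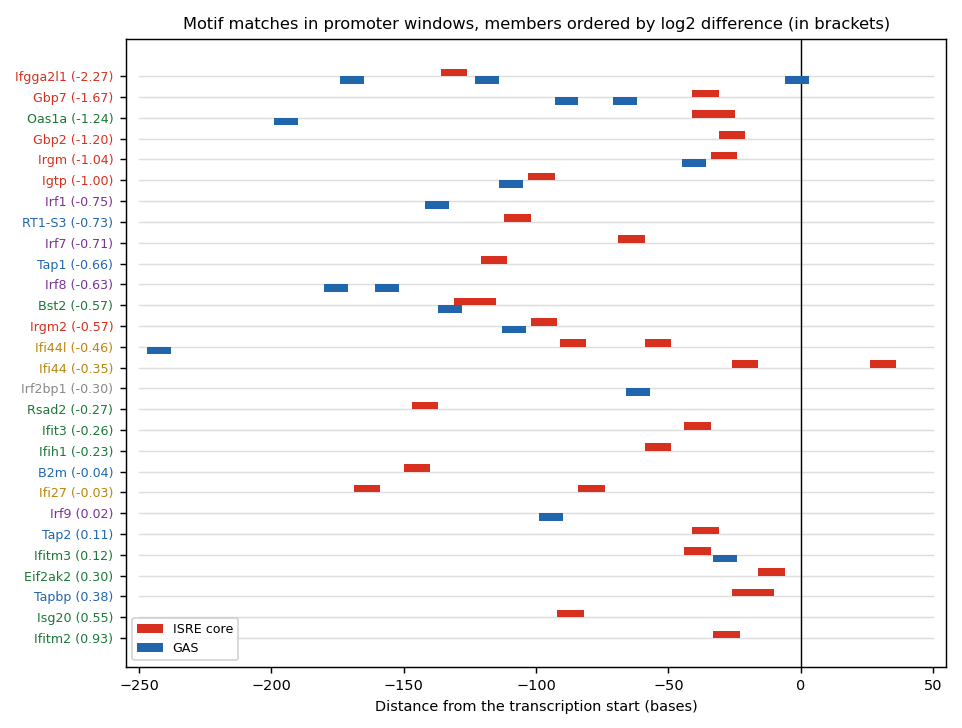
Positions of ISRE cores (red) and GAS matches (blue) relative to the transcription start, in bases, for the measured members with at least 1 match, from the lowest log2 difference at the top to the highest at the bottom. GTPase names are in red. In Igtp, Irgm and Irgm2 the blue box lies 2 bases before the red one, and ISRE cores occur from the top of the plot to the bottom.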

How the data were processed

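Biotin-labelled cRNA was made from total liver RNA, per the labels' protocols, and measured on Affymetrix arrays. The deposited values are 1 linear signal intensity per probe set and array. Affymetrix Expression Console is named per the submitters' processing notes, while the algorithm is not given in the sources used here. Means after trimming 2% at each end were 198.6 on both arrays, so the authors' intensities appear scaled to a common level.

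The 57 control probe sets were left out. Signals under the 25th percentile (12.8) were raised to it and log2 was taken. A probe set counted as measured from a mean log2 of 5.37 (a signal of 41.4). The platform annotation, which can be old, lists 1 gene for 20826 of 31042 probe sets, several for 436 and none for 9780. Gene IDs matched a RefSeq table (GRCr8) for 20758 of the 20826 and for 66 of the 67 members, whose symbols were then brought up to date. Coordinates are those of the RefSeq promoter windows. With 1 array per group a size of 2-fold replaced a test. The members and all gene lists were chosen with earlier results of these data known. Named genes were all measured members at least 2-fold different, the 3 brightest per role, members with opposed probe sets and fixed regulators, with up to 4 genes per pathway list. Others are named to account for the set, and were chosen after their values were seen. The functions were tested on simulated arrays. Alternatives were other normalizations, floors, filters, probe set choices and sizes. Software versions were numpy 2.4.6, pandas 2.3.3 and matplotlib 3.10.9 under Python 3.11.15.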

Additional observations from a re-analysis of the deposited data

How the results depend on the processing

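Without a filter on dim probe sets the counts past 2-fold were 1 higher (Irf5) and 12 lower, in place of 0 and 9. Of all 14217 genes, 808 were then at least 2-fold higher and 679 lower, in place of 299 and 271 of 9208. With a filter at the 75th percentile, which left 36 members, 4 were at least 2-fold lower and the median of all members was -0.20 in place of -0.30. At a size of 1.5-fold 20 were lower and 3 higher, and at 3-fold 5 were lower. With an offset of 16 the count at least 2-fold lower was 6 and the median -0.25, and with centring they were 11 and -0.37. Of all measured genes, 187 of 9206 were at least 2-fold lower with the offset and 332 of 9208 with centring, in place of 271. The median of all measured genes went from -0.0147 to -0.0875 with centring, so that part of this change is shared by all genes. Quantile normalization, no floor or a higher one, and the choice of probe sets gave a count of 9 at least 2-fold lower and a median between -0.33 and -0.30. The genes were not the same 9 throughout. Without shared-transcript suffixes Oas1a had no probe set left and RT1-CE5 (-1.04) came in, and with probe sets averaged Igtp came in for RT1-Bb.

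Among role medians, that of the GTPases was -1.20, and -0.99 with the offset, -1.67 with the stricter filter and -1.43 without shared-transcript suffixes. The median of class I genes was -0.10, and -0.33 without a filter, 0.0039 with the stricter one, -0.26 with the mean over probe sets and -0.51 without shared-transcript suffixes. With the stricter filter the median of sensors and effectors turned to 0.12, that of the genes taken up by name to -0.0487, and that of the other interferon-induced genes was -0.12. The interferon regulatory factors had -0.20 both without a filter and with the stricter one, which change the genes counted. Igtp passed 2-fold with centring (-1.07) and with its probe sets averaged (-1.02), and RT1-Bb fell short with the offset (-0.99) or the mean (-0.31). No paired analysis was possible because each group has 1 array. Dim probe sets, such as those of Mx1, Ifit1 and Ifit3, lie near the filter and limit what their differences can show.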

Other observations

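The pathway lists held 7 signalling, 4 nucleic acid sensing, 6 interferon-stimulated and 5 other antigen processing genes below the filter. Among these, 4 were at least 2-fold different, 3 of them lower. Dim genes pass 2-fold more often than measured ones. Without the filter, 808 of all 14217 genes were at least 2-fold higher and 679 lower, against 299 and 271 of the 9208 measured. Nothing is read from the count. Zbp1, a sensor of Z-form nucleic acid that is strongly induced by interferon, had a signal of 51.7 on the fasted and 3.4 on the olive oil array, the chemokine gene Cxcl10 had 49.1 and 13.0, and Epsti1, an interferon-response gene, had 39.7 and 11.2. Il12b, a subunit of the cytokine IL-12, went the other way, at 12.8 and 44.9. Cxcl11, a chemokine gene related to Cxcl10, was measured, at 952.1 and 534.5, 1.78-fold lower, whereas Cxcl9 was level at 193.1 and 208.8. These genes were picked after their values were seen.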
